A study of Mus musculus with 8 samples.

Results

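Ptgds (symbol ptgds in the files) was represented by 4 contigs, the name used here for a GENCODE transcript that reads were aligned to, of the 2783 contigs measured in whole mouse testes. All contigs that carried the symbol were taken, whatever their values. They held 2767 of the 621202 reads of the 2783 contigs. Poly(A) RNA was sequenced directly on Nanopore chips, so that 1 read is 1 RNA molecule and its tail length is estimated from the current. Adult Tent5c wt/wt males (wt) and males with the catalytically dead allele in both copies, Tent5c dcat/dcat (dcat), received a single dose of busulfan at 20 mg/kg or the corresponding vehicle, and the testes were collected 4 weeks later. Each of the 4 groups held 2 mice, with 1 library for each mouse. Busulfan is an alkylating drug that depletes dividing germ cells, and TENT5C is a cytoplasmic poly(A) polymerase.

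Ptgds encodes lipocalin-type prostaglandin D2 synthase, which turns prostaglandin H2 into prostaglandin D2 and, as a secreted lipocalin, also carries small lipophilic molecules such as retinoids. In the mouse testis it is known from the cells that surround and support the germ cells and from germ cells, and it takes part in the signalling that drives the differentiation of Sertoli cells in the fetal gonad. A poly(A) tail is added to the 3′ end of an mRNA in the nucleus and can be shortened by deadenylases or lengthened by poly(A) polymerases in the cytoplasm.

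The 4 contigs lie on the minus strand of chromosome 2 (GRCm38, GENCODE vM21) and share 582 bases. ENSMUST00000114259 (Ptgds-203, 7 exons, 775 bases, chr2:25466709-25469749) had the most reads, 1443 or 52.2% of the total. ENSMUST00000114251 (Ptgds-202, 8 exons, 830 bases, chr2:25466709-25470046) had 608 reads and ENSMUST00000015234 (Ptgds-201, 7 exons, 901 bases, chr2:25466709-25469842) had 589. These 3 contigs carry the same coding sequence of 570 bases and differ in their untranslated regions. ENSMUST00000137417 (Ptgds-204, 6 exons, 645 bases, chr2:25466712-25469157), annotated as a processed transcript without a coding sequence, had 127 reads.

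All 4 contigs end at nearly the same base, so that the tails compared here sit on a common 3′ end. The last 30 bases are shown because the tail follows them, with the polyadenylation signal in capitals. The signal ends 18 bases before the last base of the 3 coding contigs and 15 bases before that of Ptgds-204.
Ptgds-201, Ptgds-202 and Ptgds-203 (chr2:25466709-25466738): caaagaAATAAAagtccaaagcaagtcaga
Ptgds-204 (chr2:25466712-25466741): tgacaaagaAATAAAagtccaaagcaagtc

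Ptgds-203 was told from the others near this end by its next to last exon, which has 26 bases (chr2:25467320-25467345) and not 59 (chr2:25467287-25467345). Its 3′ untranslated region therefore has 129 bases, against 162 in Ptgds-201 and Ptgds-202. The junction of the last 2 exons is shown because it separates the contigs that a read of the 3′ part can be given to, with the start of the last exon in capitals.
Ptgds-203: caagagtaaacgcagGTGACCTGGCCTCAG
Ptgds-201, Ptgds-202 and Ptgds-204: agggctggtcacatgGTGACCTGGCCTCAG

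The other 3 contigs differed from each other only further upstream, and their first 30 bases are shown because a read tells them apart only where it reaches these or the nearby exons. Capitals mark bases that no other of the 4 contigs holds. Ptgds-201 has 93 such bases, Ptgds-202 has 37, Ptgds-204 has 30 and Ptgds-203 has 0.
Ptgds-201 (chr2:25469813-25469842): ACACCAACATCACGAGCCTTCAGTGGGCAG
Ptgds-202 (chr2:25470017-25470046): CGCCAGAGTACACACCCGGCACCATCCCCA
Ptgds-203 (chr2:25469720-25469749): gctccttctgcccagttttccttgctttgt
Ptgds-204 (chr2:25469128-25469157): GGAGCAGACCCAGGCATCCACTGGTCGCAG

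Reads of the shared 3′ part were given to 1 contig by the aligner, and the counts of the 4 contigs are uncertain to that extent. The pooled values do not depend on this choice.

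**Figure D1:**
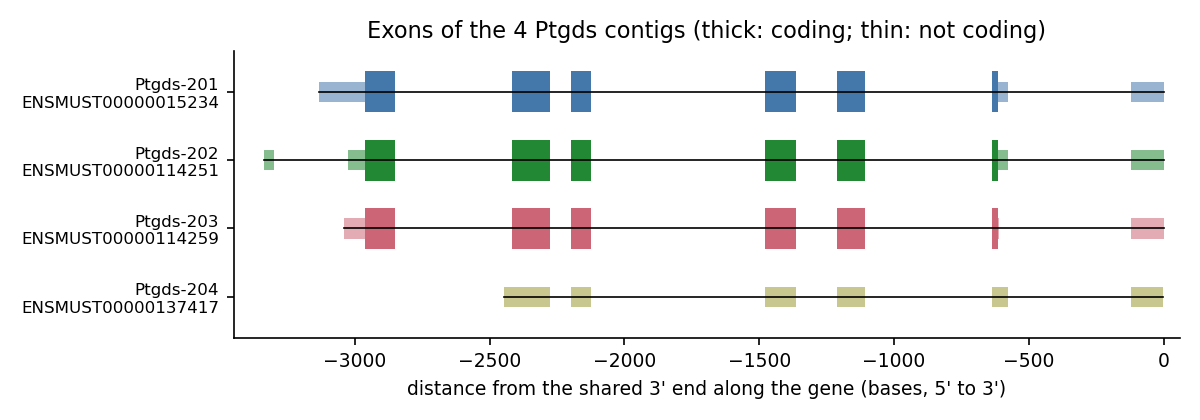
Exons of the 4 Ptgds contigs drawn to scale, against the distance in bases from their 3′ end, with coding parts as thick boxes and other exonic parts as thin boxes. The 4 contigs share their 3′ part, Ptgds-204 starts furthest downstream and has no coding part, and the next to last exon of Ptgds-203 is the shortest.

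The 8 libraries held 29574 to 129074 reads in the 2783 contigs kept by the authors, and the dcat vehicle group held both the smallest and the largest of them. Shares of reads are of these totals and not of all reads sequenced. The summed share of 12 late spermatid markers was between 9.41% and 11.9% of reads in the 4 vehicle libraries, and after busulfan it was 0.902% and 1.23% in wt and 2.16% and 3.90% in dcat. The share of the 7 Sertoli cell markers that were read, of 12 listed, was between 0.213% and 0.402% with vehicle and between 1.64% and 2.21% after busulfan. That of 9 Leydig cell markers, of 10 listed, was between 0.374% and 0.666% with vehicle, and after busulfan it was 4.12% and 4.61% in wt and 2.57% and 2.15% in dcat. Most of it was Insl3, at 3.15% and 3.64% in wt and 1.51% and 1.37% in dcat after busulfan, and the other 8 markers held 0.964% and 0.976% in wt and 1.06% and 0.774% in dcat, which overlapped. None of 6 markers of epididymis and meninges, tissues rich in Ptgds, had a row. Tent5c had 18 to 115 reads in each library, which does not test the dcat label, since that allele still gives an RNA.

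Ptgds reads were about 10 times more frequent after busulfan in either genotype, which was the largest change in its abundance. With vehicle, Ptgds had 34 and 69 reads in wt and 31 and 71 reads in dcat. After busulfan it had 526 and 896 reads in wt and 476 and 664 reads in dcat. As CPM (counts scaled to a common library size by TMM), the wt libraries held 657 and 983 with vehicle and 7409 and 8736 after busulfan.

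In dcat the CPM were 998 and 566 with vehicle and 7581 and 6776 after busulfan. Every busulfan library lay above every vehicle library, and the groups did not overlap. By number of reads, Ptgds stood between places 191 and 447 of 2311 genes in the vehicle libraries and between places 9 and 12 after busulfan. In edgeR the rise was 3.28 (log2, SE 0.34, adjusted p = 6.62e-08) in wt, where 76.0% of genes were called in either direction, 899 up and 858 down. It was 3.29 (SE 0.35, adjusted p = 2.28e-06) in dcat, where 65.3% were called, 755 in each direction.

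The interaction of genotype and busulfan was 0.00 (log2, SE 0.41, 95% interval -0.84 to 0.85, edgeR adjusted p = 1.00, with 1.47% of genes called). Within each multiplexed sequencing run, which held 1 mouse of each group, the log2 difference was 3.49 and 3.15 in wt and 2.92 and 3.58 in dcat. These counts are relative to the other reads of a library, so that the rise is one of share. The amount of Ptgds RNA in a testis was not measured. In whole testes, a larger share of a cell type among the cells left and more RNA per cell cannot be told apart. The shares of the marker lists given above moved in the same libraries, and their part in the rise was not tested.

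All 4 contigs rose after busulfan in both genotypes. In wt, Ptgds-203 went from 17 and 35 reads to 255 and 477, Ptgds-202 from 13 and 15 to 116 and 196, and Ptgds-201 from 4 and 15 to 123 and 174. In dcat, Ptgds-203 went from 18 and 41 reads to 245 and 355, Ptgds-202 from 6 and 11 to 93 and 158, and Ptgds-201 from 5 and 16 to 120 and 132. The noncoding Ptgds-204 went from 0 and 4 reads to 32 and 49 in wt and from 2 and 3 to 18 and 19 in dcat.

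For each contig the busulfan libraries of a genotype were above its vehicle libraries. In both vehicle groups, Ptgds-201 and Ptgds-204 had a library with fewer than 10 reads. Under the authors' filter on contigs they were thus kept only through the busulfan groups, which favours a rise. Ptgds-202 and Ptgds-203 had at least 10 reads in each wt vehicle library. The rises were between 2.85 and 3.70 (log2, edgeR adjusted p up to 3.73e-05) in wt, where 73.8% of contigs were called, and between 2.82 and 3.76 (adjusted p up to 0.00193) in dcat, where 62.7% were called. The rise of Ptgds-204 in dcat, from counts of 2 and 3, was not called without the vehicle library of replicate 2 (1.92, adjusted p = 0.131).

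**Figure D2:**
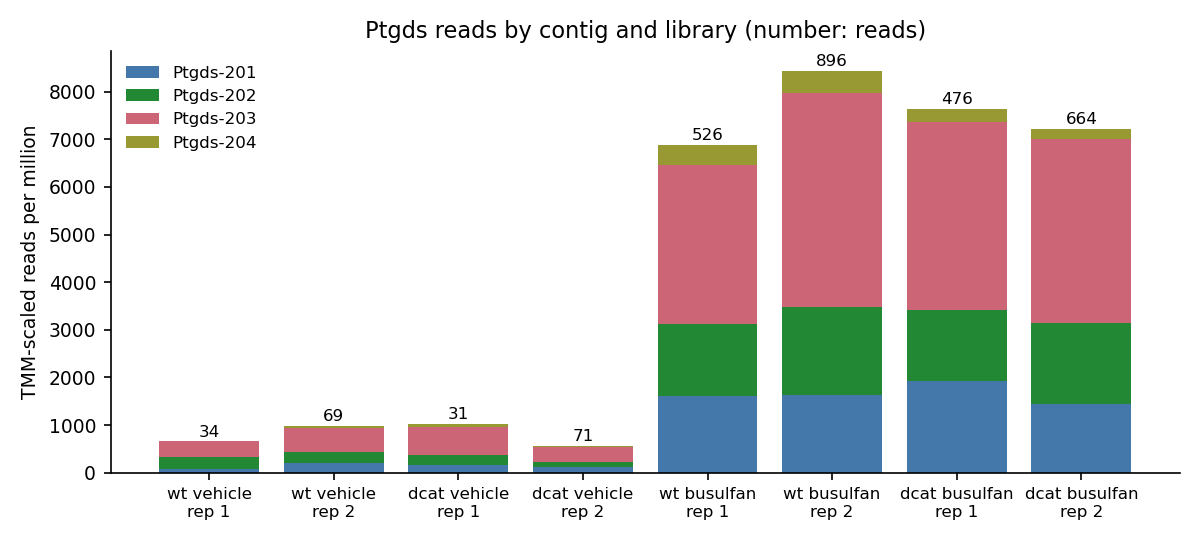
Ptgds CPM, scaled by TMM over contigs, in each of the 8 libraries, stacked by contig, with the number of reads above each bar. The 4 busulfan libraries are all above the 4 vehicle libraries, and Ptgds-203 is the largest part of every bar.

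Ptgds-203 held between 48.5% and 58.1% of Ptgds reads in every library while the total rose. With vehicle, Ptgds-203 took 50% and 50.7% of Ptgds reads in wt testes and 58.1% and 57.7% in dcat testes. After busulfan its part was 48.5% and 53.2% for wt and 51.5% and 53.5% for dcat. In the library with the most Ptgds reads, wt busulfan replicate 2, the Wilson 95% interval of that share was 50% to 56.5%, and in the one with the fewest, dcat vehicle replicate 1, it was 40.8% to 73.6%. Ptgds-201 took between 11.8% and 25.2%, Ptgds-202 between 15.5% and 38.2%, and Ptgds-204 between 0.00% and 6.45%.

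The count of 0 for Ptgds-204 in wt vehicle replicate 1 allows a share of up to 8.82%, taken as 3 reads of the 34, and the Wilson upper limit was 10.2%. Over 4 against 4 libraries, the share of Ptgds-203 was 54.1% ± 4.37 (SD, n = 4) with vehicle and 51.7% ± 2.30 (n = 4) after busulfan. Between genotypes it was 50.6% ± 1.99 in wt and 55.2% ± 3.25 in dcat (SD, n = 4 each), the difference with the smallest p of the 8 tested (exact permutation p = 0.0571, adjusted p = 0.457). No difference in the share of a contig between busulfan and vehicle or between genotypes passed the test (8 two-sided exact permutation tests, adjusted p of 0.457 or more). The smallest p these tests can give is 0.0286, or 0.229 after adjustment where 1 contig alone reaches it, so that a single share could not have passed.

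Ptgds abundance did not differ detectably between the genotypes. After busulfan the difference of dcat against wt was -0.17 (log2, SE 0.29, 95% interval -0.78 to 0.44, edgeR adjusted p = 0.814), where 5.5% of genes were called. With vehicle it was -0.17 (SE 0.35, 95% interval -0.91 to 0.56, adjusted p = 1.00), where 0.0% of genes were called and 53 had an unadjusted p under 0.05.

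By contig, the difference after busulfan was 0.04 for Ptgds-201, -0.07 for Ptgds-202, -0.01 for Ptgds-203 and -0.85 for Ptgds-204 (log2, edgeR adjusted p of 0.308 or more, with 5.82% of contigs called). For Ptgds-204 the wt busulfan libraries held 419 and 461 CPM and the dcat busulfan libraries 289 and 206 CPM, with no overlap, and the 95% interval was -1.79 to 0.08. With vehicle the contigs differed by -0.97 to 0.03 (adjusted p = 1.00 for each, with 0.0% of contigs called and 65 at an unadjusted p under 0.05).

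The tails of Ptgds were long and narrowly spread in wt testes after busulfan, and shorter and broadly spread in dcat testes. In wt busulfan libraries the mean tail was 189 and 189 nt (nucleotides), and 142 ± 4.56 nt was the 10th and 243 ± 0.32 nt the 90th percentile of single reads (SD over libraries, n = 2). In dcat busulfan libraries the mean was 116 and 126 nt, and the 10th percentile was 58.6 ± 4.86 nt and the 90th 199 ± 7.20 nt (n = 2). The SD over reads was 42.8 and 45.9 nt in wt and 60.3 and 54.7 nt in dcat.

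The most filled bin of 10 nt was that of 180 to 190 nt and of 170 to 180 nt in the wt busulfan libraries. In the dcat busulfan libraries it was that of 70 to 80 nt in replicate 1 and of 120 to 130 nt in replicate 2. Every wt value of the mean, the median and the 10th and 90th percentiles lay above every dcat value after busulfan. With 2 against 2 libraries the exact permutation test of such a value cannot go below p = 0.333.

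**Figure D3:**
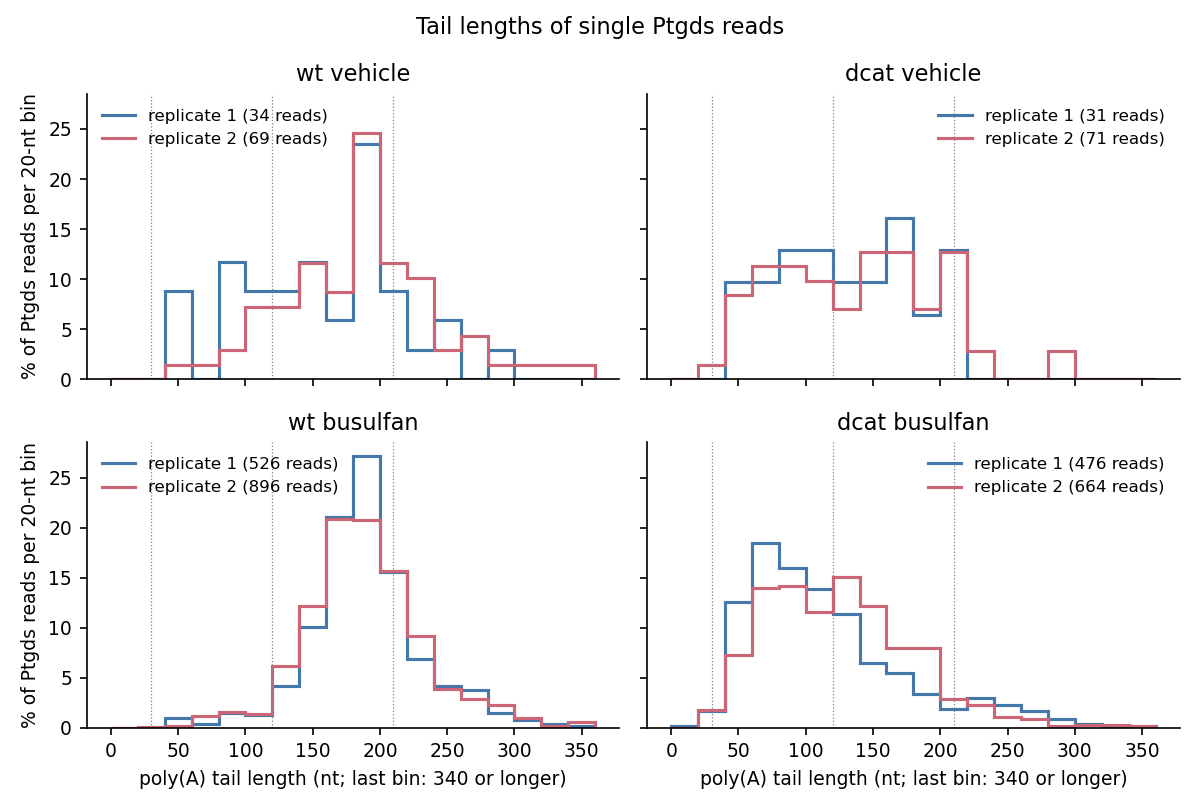
Share of Ptgds reads in bins of 20 nt of tail length, 1 panel for each group and 1 line for each library, with dotted lines at 30, 120 and 210 nt and longer tails counted in the last bin. The wt busulfan libraries have 1 peak near 180 nt, and the dcat busulfan libraries spread from about 50 to 200 nt.

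In limma, the mean tail of all Ptgds reads was 68.3 nt shorter in dcat than in wt after busulfan (-68.3 nt, SE 3.27, adjusted p = 3.97e-19), where 1.66% of 1083 genes were called, 8 longer and 10 shorter. The fall was the third largest among these genes, and the median over all of them was 3.08 nt. Within the multiplexed runs the difference was -73.4 nt in replicate 1 and -63.2 nt in replicate 2. The adjusted p rested on a variance modelled from the number of reads, and without that trend it was 0.0549. By the methods' t-test, which uses the spread of these 4 libraries alone and an unadjusted threshold, Ptgds passed, as did 70 of 1083 genes in all. After Benjamini-Hochberg adjustment of that test, which the methods do not state, 0 genes passed and the adjusted p of Ptgds was 0.533.

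The 4 contigs were shorter in dcat by similar amounts. The mean tail of Ptgds-203 was 189.8 and 189.3 nt in wt busulfan and 117 and 127 nt in dcat busulfan libraries (-67.4 nt, SE 3.92, limma adjusted p = 3.15e-09). That of Ptgds-202 was 188 and 189 nt against 109 and 124 nt (-72.0 nt, SE 5.83, adjusted p = 2.56e-07). That of Ptgds-201 was 187 and 188 nt against 119 and 126 nt (-65.3 nt, SE 5.35, adjusted p = 2.56e-07).

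The noncoding Ptgds-204, with 18 to 49 reads a library, had mean tails of 198 and 187 nt against 116 and 111 nt (-79.1 nt, SE 11.1, limma adjusted p = 2.91e-04). For each contig both wt libraries were above both dcat libraries. Of all contigs tested in that contrast, 1.35% were called, and the 4 contigs share a gene and a 3′ end and are not independent of each other. By the methods' t-test at its unadjusted threshold all 4 passed, among 81 of 1188 contigs, and after adjustment 0 contigs did, with adjusted p between 0.335 and 0.568 for the 4.

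**Figure D4:**
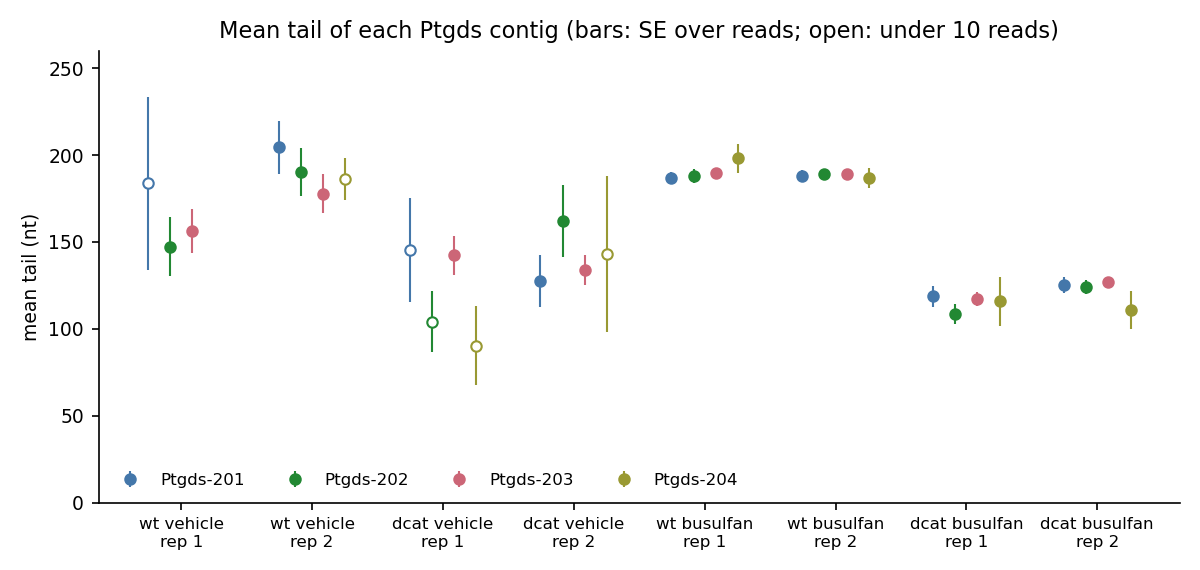
Mean tail in nt of each Ptgds contig in each of the 8 libraries, with the standard error over reads as bars and open points for means over fewer than 10 reads. After busulfan all 4 contigs lie near 190 nt in wt and between 109 and 127 nt in dcat, and the vehicle libraries have wide bars.

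With vehicle the tails were shorter in dcat by a difference that did not pass adjustment. The mean tail of all Ptgds reads was 156 and 187 nt in the wt vehicle libraries and 132 and 137 nt in the dcat vehicle libraries. Both wt libraries were above both dcat libraries. The difference was -36.8 nt (SE 10.2, 95% interval -58.0 to -15.5, limma adjusted p = 0.639), where 0.141% of 707 genes were called, and only 1 gene had a lower value.

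These means rested on 31 to 71 reads a library. Weighted by reads the difference was -41.0 nt and passed (adjusted p = 0.0213), as it did without wt vehicle replicate 1 (-52.2 nt, adjusted p = 0.0429). Ptgds-203 was the only contig with enough reads for a test (-29.0 nt, adjusted p = 0.989, with 0.139% of contigs called). Within the runs the pooled difference was -23.9 nt in replicate 1 and -49.7 nt in replicate 2.

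After busulfan the mean tail of Ptgds was higher in wt and lower in dcat than with vehicle, by amounts that did not pass adjustment in the unpaired fit. In wt the means went from 156 and 187 nt to 189 and 189 nt, without overlap (17.6 nt, SE 7.41, limma adjusted p = 0.0766). In dcat they went from 132 and 137 nt to 116 and 126 nt, also without overlap (-13.9 nt, SE 5.21, limma adjusted p = 0.0942). With the multiplexed run as a replicate block, the same values passed in both (limma adjusted p = 6.87e-04 in wt and 0.0419 in dcat). That fit leaves little spread of its own to estimate, so that these p-values rest mainly on the variance modelled over all genes.

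In wt, 42.6% of 537 genes were called for tail length, 5 longer and 224 shorter, with a median of -19.9 nt, and 11 genes had a larger value than Ptgds. In dcat, 19.8% of 464 genes were called, all 92 shorter, with a median of -17.7 nt, so that the value of Ptgds was near that of the other genes. With each library centred on its median the wt value was 40.0 nt (adjusted p = 0.00357) and the dcat value turned to 7.98 nt (adjusted p = 0.486). Within the runs the wt difference was 33.2 nt in replicate 1 and 1.97 nt in replicate 2, so that it came mainly from the wt vehicle library of replicate 1, with 34 reads. The dcat difference was -16.3 and -11.6 nt.

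The interaction of genotype and busulfan was -31.5 nt (SE 11.8, 95% interval -58.3 to -4.76, limma adjusted p = 0.569, with 0.269% of genes called). Without wt vehicle replicate 2 it was -46.9 nt and passed (adjusted p = 0.0282). By contig, Ptgds-203 was 22.5 nt longer after busulfan in wt (SE 6.52, limma adjusted p = 0.0179, with 39.7% of contigs called, 3 longer and 206 shorter). That call was lost with median tails (11.5 nt, adjusted p = 0.199), without the trend (0.116), with weights by reads (18.7 nt, 0.0698), by the methods' t-test with or without adjustment, and without wt vehicle replicate 1 (11.7 nt, 0.0830). In dcat, Ptgds-203 differed by -16.0 nt (adjusted p = 0.129, with 19.5% of contigs called), which passed without dcat vehicle replicate 2 (-20.3 nt, adjusted p = 0.00659).

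Short tails were rare on Ptgds RNA in wt and common in dcat after busulfan. In the wt busulfan libraries, 4.18% and 4.35% of reads had tails of 30 to 120 nt, with Wilson 95% intervals of 2.78% to 6.25% and 3.20% to 5.89%. In the dcat busulfan libraries 62.2% and 48.6% did, with intervals of 57.7% to 66.4% and 44.9% to 52.4%. The dcat libraries were far above the wt libraries, and the intervals of the 2 dcat libraries did not overlap each other.

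Tails of 120 to 210 nt made up 72.2% and 68.0% in wt and 27.9% and 44.4% in dcat after busulfan. Tails of 210 nt or longer made up 23.6% and 27.6% in wt and 9.24% and 6.78% in dcat. With vehicle, 29.4% (16.8% to 46.2%) and 13% (7.02% to 23.0%) of wt reads and 45.2% (29.2% to 62.2%) and 42.3% (31.5% to 53.8%) of dcat reads had tails of 30 to 120 nt. In all 4 contrasts and both windows the groups did not overlap (two-sided exact permutation p = 0.333, the smallest possible). The windows split the same reads and the contrasts share libraries, so that these are not separate results. How many of all genes separate in this way was not counted. The Wilson intervals cover counting error only.

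By contig, the share of tails of 30 to 120 nt after busulfan was 3.97% ± 0.62 in wt and 54.9% ± 11.2 in dcat for Ptgds-203 (SD, n = 2). It was 5.06% ± 1.38 and 55.9% ± 9.19 for Ptgds-202, and 4.62% ± 0.78 and 55% ± 5.95 for Ptgds-201. For Ptgds-204 it was 2.58% ± 0.77 and 65.1% ± 10.1. In each contig both dcat libraries were above both wt libraries. The contigs share a 3′ end and are not independent, and how many of all contigs separate in this way was not counted.

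Counted as reads, the dcat testes had more Ptgds RNA with short tails and less with long tails after busulfan, at a total that did not differ detectably. Reads with tails of 30 to 120 nt stood at 310 and 380 CPM in wt and at 4714 and 3296 CPM in dcat. Reads with tails of 120 to 210 nt stood at 5352 and 5938 CPM in wt and at 2118 and 3010 CPM in dcat. Neither window overlapped between the genotypes, and how many of all genes separate in this way was not counted.

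When the reads of each gene were counted by window, the short window of Ptgds was 11.8-fold higher in dcat (log2 3.56, SE 0.37, edgeR adjusted p = 8.19e-08) and the long window 2.14-fold lower (log2 -1.10, SE 0.33, adjusted p = 0.0299). Of all 2041 gene windows tested, 8.48% were called, 151 higher and 22 lower in dcat. The call of the long window was lost with DESeq2 (adjusted p = 0.106), without wt busulfan replicate 1 (0.153), without wt busulfan replicate 2 (0.190) and without dcat busulfan replicate 1 (0.0811). Of the 12 late spermatid markers, 8 were called higher in dcat after busulfan, where 4.76% of all genes were, and the part of remaining germ cells in the difference of Ptgds tails was not tested. Of those markers 9 could be tested for tail length, of which 2 were longer and 2 shorter in dcat, where 1.66% of all genes were called.

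**Figure D5:**
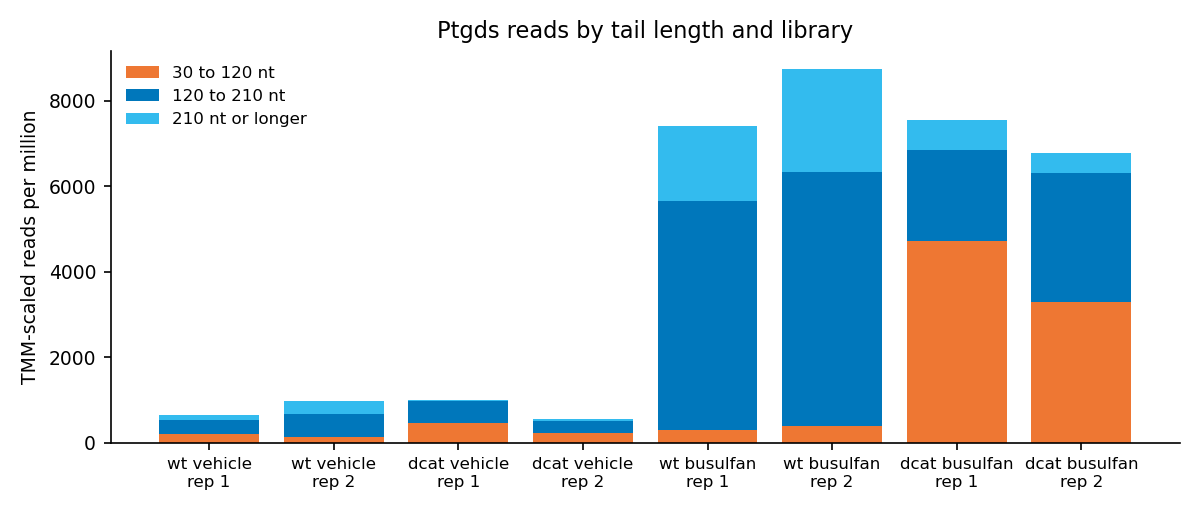
Ptgds CPM, scaled by TMM over genes, in each of the 8 libraries, stacked by tail length window. After busulfan the wt libraries hold 310 and 380 CPM with tails of 30 to 120 nt and the dcat libraries 4714 and 3296, at similar totals.

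The contigs were also compared with Ptgds-203 within each library. Ptgds-201 differed from Ptgds-203 by 2.63 ± 12 nt (SD, n = 6 libraries with at least 10 reads of each, two-sided exact sign-flip permutation p = 0.969). Ptgds-202 differed by 2.50 ± 13.4 nt (n = 7, exact sign-flip permutation p = 0.688), and Ptgds-204 by -2.93 ± 10 nt (n = 4, exact p = 0.625, smallest possible 0.125). The adjusted p was 0.969 for each of the 3. With 4 libraries the test of Ptgds-204 could not have passed. The contigs differed in these means by less than the spread between libraries.

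The other genes of prostaglandin metabolism were sparsely read. Of 30 genes listed for it besides Ptgds, 6 had rows, none of which makes prostaglandin H2. The cyclooxygenases Ptgs1 and Ptgs2, which make prostaglandin H2, the other prostaglandin D synthase Hpgds and the prostaglandin D2 receptors Ptgdr and Ptgdr2 had no row, so that neither the substrate nor the response side of the pathway was measured.

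Of the 6 genes, 5 rose after busulfan in wt and 4 in dcat, where 38.9% and 32.7% of all genes were called higher. The median was 3.11 (log2) in wt, against 0.29 over all genes tested, and 1.60 in dcat, against 0.15. The counts were 3 in wt with filterByExpr and 2 in dcat without dcat vehicle replicate 2. Akr1b3, an aldo-keto reductase that can make prostaglandin F2α, went from 9 and 14 to 86 and 148 reads in wt (log2 2.81, edgeR adjusted p = 1.73e-06) and from 8 and 42 to 56 and 102 reads in dcat (log2 1.64, adjusted p = 6.98e-04). The related Akr1b8 was listed without a claim that it makes prostaglandins. It went from 5 and 4 to 56 and 85 reads in wt (log2 3.42, adjusted p = 2.10e-06) and from 4 and 9 to 47 and 56 reads in dcat (log2 2.91, adjusted p = 5.40e-05). Their busulfan libraries were above their vehicle libraries in both genotypes.

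Ptgr1, a reductase that inactivates prostaglandins, went from 4 and 3 to 28 and 65 reads in wt and from 4 and 5 to 33 and 25 in dcat, and rose in both. The prostacyclin synthase Ptgis went from 1 and 1 to 13 and 13 reads in wt (log2 3.08, edgeR adjusted p = 0.00157). In dcat its call was near the threshold (log2 1.55, edgeR adjusted p = 0.0437). There it had 3 and 3 of 29574 and 129074 reads with vehicle and 6 and 13 of 61482 and 96700 after busulfan. As shares of the library these overlapped. Ptgr3 rose in wt, from 0 and 0 to 11 and 13 reads, which is at least 2.8-fold higher against 3 reads in each vehicle library, and with that bound the wt median was 2.95. In dcat it had 1 and 3 reads with vehicle and 6 and 5 after busulfan (log2 1.37, edgeR adjusted p = 0.128). Ptges3, a chaperone with prostaglandin E synthase activity, had 9 and 13 reads in wt with vehicle and 18 and 19 after busulfan (log2 0.26, adjusted p = 0.630).

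None of the 6 passed the test between the genotypes after busulfan in reads, where 5.5% of all genes were called. Their median was -0.40, against 0.05 over all genes tested. None of the 4 that could be tested passed it in tail length, where 1.66% of all genes were called (median -1.66 nt, against 3.08 nt). At these shares a list this short could well hold no call. Akr1b3 had mean tails of 130 and 126 nt in wt and 139 and 123 nt in dcat after busulfan, with overlap.

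Of 17 other lipocalins and carriers of lipids or retinoids, 7 had rows, and 6 of them rose after busulfan in each genotype, where 38.9% of all genes were called higher in wt and 32.7% in dcat. Their median was 2.91 (log2) in wt, against 0.29 over all genes tested, and 1.93 in dcat, against 0.15. Without dcat vehicle replicate 2 the count in dcat was 3. Fabp3, a fatty acid binding protein, went from 31 and 32 to 237 and 462 reads in wt and from 15 and 43 to 243 and 320 reads in dcat. Fabp9, a fatty acid binding protein of male germ cells, fell in both genotypes, by 3.85 (log2) in wt and by 2.45 in dcat.

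The lipocalin Lcn2, which binds iron carriers of bacteria, had 441 and 1054 reads in wt and 144 and 118 reads in dcat after busulfan, and its level was lower in dcat (log2 -2.25, edgeR adjusted p = 6.51e-04). Fabp9 was the only carrier higher in dcat after busulfan (log2 1.49, adjusted p = 0.0425), a call lost without any of 5 single libraries. In that contrast 5.5% of all genes were called, 110 higher and 17 lower in dcat. None of the 6 carriers tested passed the test of tail length between the genotypes after busulfan, where 1.66% of all genes were called. Lcn2, for instance, had mean tails of 93.2 and 99.1 nt in wt and 106 and 98.6 nt in dcat, which overlapped.

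Over the 8 libraries, the 5 genes whose read counts followed Ptgds most closely were Clu, Aard, Fabp3, Cst12 and Aldh1a1, of 371 genes with at least 10 reads in every library. Likeness was the root mean square difference of log2 CPM, each gene centred on its own mean. It was 0.21 for Clu, which encodes clusterin, and 0.33 for Aldh1a1, a retinal dehydrogenase, against a median of 1.68 over all 371. Clu, Aard and Cst12 were on the list of Sertoli cell markers, and Insl3, a Leydig cell hormone, stood at place 18 with 0.54. Only 4 Sertoli and 2 Leydig cell markers had enough reads in every library to be ranked.

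By mean tail the 5 closest were Insl3 (10.5 nt), Jak3 (13.1 nt), Odf1 (17.7 nt), Agt (23.3 nt) and Uqcrfs1 (25.2 nt), against a median of 33.1 nt. Insl3 had mean tails of 181 and 187 nt in wt and 105 and 110 nt in dcat after busulfan, and 168 and 183 nt in wt and 148 and 144 nt in dcat with vehicle. In reads Insl3 was lower in dcat after busulfan (log2 -1.31, edgeR adjusted p = 0.0154), where Ptgds was at -0.17, and whether the genes differed was not tested. Jak3 encodes a tyrosine kinase and Odf1 a protein of the sperm tail. The Jak3 gene overlaps Insl3, so that Insl3 and Jak3 may not be separate neighbours of Ptgds, which was not tested. These measures describe 8 libraries of 4 groups and carry no test.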

How the data were processed

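Direct RNA sequencing reads of 8 whole testis libraries, 1 mouse each, were basecalled with Guppy and aligned by the authors with Minimap2 to GENCODE vM17 genes of GRCm38, and demultiplexed with Deeplexicon. The deposited table of read counts is raw. The deposited tail lengths, in nucleotides and with no other scale, came from Nanopolish, 1 per read. The authors kept reads with a passing tail and a confident barcode. A contig was kept where, in some group, neither library had fewer than 10 reads of it. Their DESeq2 tables hold fold changes and p-values of their own comparisons and were not used.

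Rows with the symbol ptgds were taken, and for gene values the contigs of a symbol were summed (counts) or pooled (tails). Counts of all 2311 genes or unnamed contigs, or of 2783 contigs, were compared with edgeR 4.0.16 (R 4.3.3) by quasi-likelihood tests after TMM scaling, over 8 libraries of 29574 to 129074 reads as 4 groups. Mean tails were compared with limma 3.58.1, with a trend on log2 mean reads, over the libraries of each contrast, in features with at least 10 reads in each. P-values were two-sided and adjusted by Benjamini-Hochberg over all features tested, at a threshold of 0.05, and n counts mice. Contig shares and differences between contigs were compared by exact permutation and sign-flip tests, adjusted over their own family. Windows include their lower and not their upper bound. Both fits were run on simulated data with large changes set in the dcat busulfan group alone. That check did not cover the smaller tail differences with vehicle or between busulfan and vehicle. Structures and sequences came from GENCODE vM21 and GRCm38.

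Alternatives were, for counts, RLE scaling, library size alone, DESeq2 1.42.0, filterByExpr, only the libraries of the contrast, contigs on their own, a replicate block and leaving out each library. For tails they were medians, log2 lengths, centred libraries, a minimum of 20 reads, no trend, weights by reads, all 8 libraries, the methods' t-test, each read name once, a replicate block and leaving out each library. For windows they were splits at 100 and 150 nt. Equal weight to contigs and the counts of reads by window were added after the data were seen. Per the labels, the replicate number marks the multiplexed run that held 1 mouse of each group, which pairs the samples, and deviations of same-numbered libraries from their group means correlated between -0.10 and 0.26 over 6 pairs of groups.

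The rule for named genes took all Ptgds contigs, the measured genes of lists of prostaglandin and carrier genes, the 5 nearest genes by reads and by tails, and Insl3. The members and lists were chosen with earlier results of these data known. The 176 repeated read names held none of Ptgds.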

Additional observations from a re-analysis of the deposited data

How the results depend on the processing

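The rise of Ptgds after busulfan was called under all 15 alternatives in each genotype, 14 in edgeR and 1 in DESeq2 (log2 3.03 to 3.62 in wt and 2.84 to 3.63 in dcat). The direction of the shorter tails in dcat after busulfan held throughout, but the call was lost without the trend (-68.3 nt, limma adjusted p = 0.0549) and, only once adjusted over all genes, by the methods' t-test (-68.3 nt, adjusted p = 0.533). With vehicle that difference passed with weights by reads (-41.0 nt, adjusted p = 0.0213) and ran from -52.2 to -21.4 nt when 1 library was left out. The tail difference of busulfan against vehicle in wt passed with centred libraries (40.0 nt), with the replicate block (17.6 nt) and with each contig on its own (22.5 nt for Ptgds-203), and ran from 2.20 to 33 nt without 1 library. It passed without wt vehicle replicate 2 and without wt busulfan replicate 2. In dcat it turned to 7.98 nt with centred libraries, as it did for Ptgds-203 (6.81 nt), and passed with the replicate block (-13.9 nt) and with equal weight to contigs (-23.3 nt). The replicate block changed no other call of Ptgds. Without 1 library the interaction of tails ran from -46.9 to -16.1 nt, and the tail difference of Ptgds-202 between busulfan and vehicle in wt from -1.82 to 41.1 nt.

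Differences near 0 changed sign. Without 1 library the log2 difference of dcat against wt with vehicle ran from -0.47 to 0.27 for the gene, -0.58 to 0.93 for Ptgds-201, -0.27 to 0.53 for Ptgds-203 and -0.70 to 4.40 for Ptgds-204. After busulfan it ran from -0.18 to 0.25 for Ptgds-201, -0.20 to 0.083 for Ptgds-202 and -0.21 to 0.22 for Ptgds-203, and the interaction ran from -0.44 to 0.31. With each contig on its own the gene value with vehicle was 0.0071, and with filterByExpr the interaction was -0.036. For Ptgds-203 with vehicle the log2 difference was -0.072 with RLE, -0.015 with library size, -0.029 with DESeq2, -0.0045 with filterByExpr and -0.014 with only 4 libraries, and for Ptgds-204 it was -0.031 with RLE. For Ptgds-201 after busulfan the same settings gave -0.10, -0.026, -0.10, -0.12 and -0.12.

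Shares of Ptgds reads, in percentage points, ran without 1 library from -4.63 to 2.95 (Ptgds-202) and -0.943 to 1.21 (Ptgds-204) for busulfan minus vehicle, and from -0.576 to 3.46 (Ptgds-201) and -1.45 to 0.575 (Ptgds-204) for dcat minus wt. For Ptgds-204, busulfan minus vehicle was 2.88 within wt and -2.02 within dcat, and dcat minus wt was 2.44 within vehicle and -2.45 within busulfan. For Ptgds-203, dcat minus wt was 7.54 within vehicle and 1.61 within busulfan. For Ptgds-202, busulfan minus vehicle was -8.02 within wt and 4.24 within dcat, and dcat minus wt was -12.6 within vehicle and -0.298 within busulfan. Tail differences from Ptgds-203 within a library were -1.34 nt (Ptgds-201) and -0.0436 nt (Ptgds-202) with medians, -2.58 nt (Ptgds-202) with no minimum, and -2.15 to 4.41, -1.78 to 4.43 and -6.69 to 1.45 nt for Ptgds-201, Ptgds-202 and Ptgds-204 without 1 library.

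With the windows split at 100 and 150 nt, the share of short tails was 39.8 and 59.8 points higher in dcat after busulfan, and that of the long window -22.5 and -42.6 points after busulfan and -1.61 and -8.39 with vehicle. In wt the long window was 9.40 points higher after busulfan with the split at 100 nt. The log2 difference of reads in the long window was -1.17 with DESeq2 and -0.71 with the split at 100 nt (adjusted p = 0.198), and -1.37 to -0.88 without 1 library. Ptgds had 31 to 71 reads in each vehicle library, which limits every comparison with vehicle.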
